A study of Homo sapiens with 23 samples.

Results

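Binding of the transcription factor YY1 was followed across the genome of SCi-NCCITs, cultured without or with doxycycline, as peaks of ChIP-seq on chromosomes 1 to 22 and X. The members were all YY1 peaks of 4 libraries, 2 without doxycycline and 2 with 2 µg/mL doxycycline for 72 hours, and they numbered 328826 of the 1190670 peaks in the ChIP-seq lists of the series. NCCIT is an embryonal carcinoma line with pluripotent features. SCi-NCCITs carry a doxycycline-inducible dCas9-KRAB and constantly expressed sgRNAs that target SVAs, so cells of both conditions held the transgene and the sgRNAs, and doxycycline was what differed. According to the study, the sgRNAs also match LTR5Hs. No library came from doxycycline-treated cells without sgRNAs, and nothing in the labels says whether libraries of a condition were separate cultures, so the spread between them may be technical. In each condition 1 YY1 library is labelled rep2, and the other carries no replicate number and is called replicate 1 here.

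YY1 is a zinc finger protein that is present in most cell types and binds a short motif with ATGG at its core. It can activate or repress transcription, it sits close to the start sites of many housekeeping genes, and it takes part in contacts between enhancers and promoters. SVAs are the youngest retrotransposons of the human genome. A segment of them, named SINE-R, comes from HERV-K and therefore resembles the LTR5 family of repeats. KRAB recruits the machinery that deposits H3K9me3, a histone mark of silent chromatin.

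The 5 YY1 sites with the highest mean fold enrichment over the 4 libraries all lay at promoters, and each held the letters AANATGGC within 50 bp of the summit of its strongest peak. They are shown in hg19, 5′ to 3′ on the strand of the motif, with the motif in capitals:
CXXC1, chr18:47814314-47814353, plus strand: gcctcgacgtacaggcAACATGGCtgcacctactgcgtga
ZNF649, chr19:52408336-52408375, minus strand: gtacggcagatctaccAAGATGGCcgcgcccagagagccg
MYLK-AS1, chr3:123304061-123304100, minus strand: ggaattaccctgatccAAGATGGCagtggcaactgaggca
ZNF615, chr19:52511478-52511517, plus strand: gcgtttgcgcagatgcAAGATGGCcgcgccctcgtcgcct
TOR1A, chr9:132586440-132586479, minus strand: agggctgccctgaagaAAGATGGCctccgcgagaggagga

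Sequence shared among SVAs was used to describe the sites further. Words of 24 bases were taken from the 619 de-repressed SVAs on these chromosomes, without use of the YY1 lists. There were 1473 words, called SVA words, that at least 50 of these SVAs share and that occur at most 6000 times in hg19.

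More YY1 peaks were called with doxycycline than without. The libraries without doxycycline held 56068 and 75820 peaks (replicates 1 and 2), and the libraries with doxycycline held 81626 and 115312. Both doxycycline libraries were above both libraries without it, with 98469 ± 23820 against 65944 ± 13967 peaks (mean ± SD, n = 2 each). With 2 libraries against 2 the smallest p that the two-sided exact permutation test can give is 0.33, which it gave here. The doxycycline libraries held 1.46 times as many peaks in replicate 1 and 1.52 times in replicate 2. Depth, as estimated from the peak lists, moved with this difference between the conditions. Between 20.8% and 24.6% of the weak peaks of a library had fold enrichments on an evenly spaced grid (within 0.01). Under an assumed form of the ratio, the spacing gives an estimate of the fragments over a background base, which was 2.01 and 1.71 without doxycycline and 2.50 and 2.15 with it, 1.25 and 1.26 times higher within replicates. Within a condition this estimate was lower in replicate 2, which held more peaks. Divided by the smallest peak width of each library, it was 0.0070 and 0.0077 without and 0.0098 and 0.0105 with doxycycline. Those values were 1.40 and 1.36 times higher within replicates. The part of depth in the number of peaks was not tested.

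The added peaks were mostly distal. A peak was called a promoter peak when its summit lay within 1000 bp of an annotated transcription start site. Promoter peaks numbered 17507 and 18143 without doxycycline and 20593 and 23884 with it, and distal peaks 38561 and 57677 without and 61033 and 91428 with it. Distal peaks thus rose by a factor of 1.58 and 1.59 within the replicates, and promoter peaks by 1.18 and 1.32. The promoter share was 31.2% and 23.9% without doxycycline and 25.2% and 20.7% with it. Here the groups overlapped (exact permutation p = 0.67), since replicate 2 had the lower share in either condition. The 95% Wilson interval of each share spanned under 1 percentage point, which covers counting error only.

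The median height of the peaks differed little. Fold enrichment, the ratio of fragments at the summit to the local background, had a median of 5.32 and 5.38 without doxycycline and 5.14 and 5.19 with it (exact permutation p = 0.33). With lists cut to the same length of 56068 peaks, the difference between the medians turned from -0.19 to 1.45. That cut removes the weakest peaks of the longer lists, which raises their medians by construction. Peaks with a fold enrichment of at least 8 numbered 13810 and 18694 without doxycycline and 19776 and 27978 with it.

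Peaks of the 4 lists that shared at least 1 bp were joined into 139927 sites. Of these, 36939 (26.4%) held a peak of every library and are called kept. Another 9090 (6.5%) held a peak of both doxycycline libraries and of neither library without it, and are called gained. Only 339 (0.242%) held a peak of both libraries without doxycycline and of neither with it, and are called lost. Other combinations were more frequent. The 2 libraries of replicate 2 alone shared 12962 sites, the 2 libraries of replicate 1 alone shared 4097, and 32268 sites were held by doxycycline replicate 2 alone. With the lists cut to 56068 peaks per library there were 2157 gained and 1277 lost sites, a cut that by construction removes peaks from the longer doxycycline lists.

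Strong peaks were shared almost fully within a replicate. Of the peaks with a fold enrichment of at least 8 without doxycycline, 99.6% in replicate 1 and 99.8% in replicate 2 overlapped a peak of the doxycycline library of the same replicate. Between the 2 libraries without doxycycline the shares were 93.1% in either direction. Of the strong peaks of doxycycline replicate 1, 98.2% overlapped a peak of doxycycline replicate 2, and 95.8% in the other direction. Strong peaks without doxycycline overlapped the doxycycline list of the other replicate in 94.4% (replicate 1) and 97.3% (replicate 2). The lists differ in length, and a longer list offers more peaks to overlap. Likewise, across the kept sites the log2 fold enrichments of libraries called the same replicate here had a Pearson's r of 0.93 and 0.92. Those of the other pairs had 0.85 to 0.87. These correlations are over sites, which are not replicates, and describe the libraries.

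Taken as whole classes, kept sites were stronger, and more often at promoters and with the YY1 motif, than gained or lost sites. Kept sites had to hold a peak of every library, which favours strong sites by construction. Of the kept sites 31.7% lay at promoters and 39.7% held AANATGGC on either strand in the 101 bp around the summit, where N is any base. Only these letters were counted as the YY1 motif, so a site with another form of it counts as without. Over all sites these shares were 19.5% and 26.7%, and 1.95% of windows of the same length 1000 bp away held the motif. Gained sites had 14.2% promoters and 28.9% with the motif, while lost sites had 18.6% promoters and 10.0% with the motif. Among kept sites the share with the motif rose from 22.6% in the lowest of 5 equal groups by mean fold enrichment to 53.3% in the highest. The promoter share was 49.8% in that highest group and between 24.2% and 32.2% in the others. The 3694 weakest kept sites had a median mean fold enrichment of 4.37, close to 4.39 for gained and 4.34 for lost sites. Of these weak kept sites 17.7% held the motif, below the share of gained sites and above that of lost sites. Promoters made up 35.9% of them, above the shares of gained and lost sites. At similar strength the motif was thus less frequent at kept than at gained sites.

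The strongest kept site lay 115 bp from a start site of CXXC1, which encodes a reader of unmethylated CpG. Its fold enrichment was 175 and 160 without doxycycline and 142 and 131 with it. ZNF649, a KRAB zinc finger gene, had 151 and 148 without and 134 and 131 with doxycycline. The site near MYLK-AS1, 164 bp from a start site of HACD2, a dehydratase of fatty acid elongation, had 153 and 143 without and 134 and 127 with it. At these 3 sites both doxycycline libraries were below both libraries without it. ZNF615, another zinc finger gene, had 159 and 134 without and 136 and 125 with doxycycline. TOR1A, which encodes an ATPase of the endoplasmic reticulum, had 152 and 144 without and 132 and 125 with it. At ZNF615 the groups overlapped, and at TOR1A they did not.

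Across kept sites as a whole, fold enrichment was higher with doxycycline. Its median over the kept sites was 6.32 and 7.48 without and 7.999 and 9.83 with doxycycline. The median difference of log2 fold enrichment was 0.30 in replicate 1 and 0.35 in replicate 2, and 79.2% and 82.7% of the kept sites were higher with doxycycline. Kept promoter sites had medians of 0.22 and 0.32, kept distal sites 0.34 and 0.37. The estimated background pileup was also higher with doxycycline, and the part of depth in this rise was not tested. To compare single sites, the values of each library were centred on its median over kept sites. In a fit without a term for the replicate number, no kept site passed limma at an adjusted p of 0.05 (0 of 36939, 0%). At an unadjusted p under 0.05 there were 163 higher (0.441%) and 758 lower sites (2.05%), and without centring 2062 higher and 99 lower. The direction of the majority thus changed with the centring, and neither count was adjusted for the number of sites. With centring and the replicate number as a block, 70 kept sites were higher and 467 lower at a limma adjusted p of 0.05. The labels do not say that libraries called the same replicate were paired.

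In the fit without this block, the 3 kept sites with the smallest limma p among the lower ones were alike in ways that the YY1 values did not set. The first, on chr10 2053 bp from a start site of NFKB2, a subunit of NF-kappa-B, had a fold enrichment of 14.0 and 21.4 without and 4.85 and 4.44 with doxycycline (centred log2 difference -2.26, SE 0.34, limma adjusted p = 0.74). The second, on chr7 3340 bp from the pseudogene GTF2IP23, had 9.28 and 13.5 without and 3.69 and 3.06 with it (-2.10, adjusted p = 0.74). The third, on chr19 10717 bp from a start site of THEG, a gene of the testis, had 11.3 and 14.7 without and 4.02 and 4.76 with it (-1.93, adjusted p = 0.74). In all 3 the values of the 2 conditions did not overlap, which is no support, since the sites were chosen by these same values. All 3 held SVA words and H3K9me3 peaks in both doxycycline libraries, and an OCT4 peak only without doxycycline. The chr7 site already held H3K9me3 in both libraries without doxycycline, and the other 2 in neither.

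Of the 50 lower sites with the smallest limma p, 37 held at least 5 SVA words, 30 gained H3K9me3 and 41 held an OCT4 peak without doxycycline. Over all 36939 kept sites these features were held by 389, 188 and 11459. The 3 higher sites with the smallest p had none of the SVA words. On chr16, a site 5695 bp wide at position 46403427 had 1.95 and 1.72 without and 9.82 and 12.1 with doxycycline, and it held H3K9me3 peaks in all 4 libraries and OCT4 peaks in both conditions (centred log2 difference 2.21, SE 0.30, adjusted p = 0.74). A site on chr2, 254141 bp from THORLNC and 367961 bp from EN1, had 5.02 and 7.38 without and 15.1 and 23.98 with it (1.28, adjusted p = 1.00). This site holds the motif, shown in capitals on the plus strand at chr2:119233948-119233987: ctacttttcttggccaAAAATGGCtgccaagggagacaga
The third, on chr11 11940 bp from the olfactory receptor pseudogene OR6M2P, had 4.45 and 5.30 without and 17.0 and 14.2 with it (1.31, adjusted p = 1.00).

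Gained sites were weak. Their median fold enrichment was 4.23 and 4.44 in the doxycycline libraries, and 4065 of the 9090 reached 4 in both, 206 reached 6 and 5 reached 8. Lost sites were of similar strength, with medians of 4.14 and 4.42 without doxycycline, and 150 of the 339 reached 4, 18 reached 6 and 2 reached 8. For comparison, 10698 kept sites reached 8 in all 4 libraries. Gained sites lay in introns in 49.8% and between genes in 31.9% of cases, and lost sites in 44.2% and 33.6%.

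The 5 gained sites with the highest mean fold enrichment were all distal. On chr7 at 45507584-45508026, in an intron and 105935 bp from ADCY1, the doxycycline libraries gave 10.9 and 8.88. On chr1 at 184203713-184204316, in intergenic sequence, they gave 9.99 and 9.52, and on chr11 at 55365725-55366303, 9070 bp from the olfactory receptor gene OR4C11, they gave 8.57 and 10.6. On chr7 at 137109234-137109800, in an intron and 28355 bp from a start site of DGKI, a diacylglycerol kinase, they gave 11.1 and 7.93. On chr20 at 18924131-18924605 they gave 7.94 and 10.5. None of the 5 held SVA words. At least 5 such words were held by 0.957% of gained and 1.04% of all sites, so few or none are expected among 5 sites. Both sites on chr7 held H3K9me3 peaks in both libraries without doxycycline and in neither with it. Only the site near OR4C11 held AANATGGC within 50 bp of its summit.

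The 5 lost sites with the highest mean fold enrichment all held SVA words and H3K9me3 in both doxycycline libraries. Among all lost sites 29.8% held at least 5 SVA words and 40.1% held H3K9me3 in both doxycycline libraries. The strongest, on chr11 at 67371512-67372264, lay 1224 bp from a start site of ENSG00000255119 and 1356 bp from NDUFV1, a subunit of respiratory complex I. Its fold enrichment was 9.11 and 16.4 without doxycycline, with no peak in either doxycycline library. The site on chr9 at 124191041-124191813, in an intron and 38839 bp from a start site of GGTA1, had 7.98 and 13.3 without doxycycline. The sites on chr6 at 74311467-74312591 and 52787202-52787961, the latter 13005 bp from GSTA3, a glutathione transferase, had 8.08 and 11.2 and 4.99 and 13.6. The site on chr19 at 38356466-38357010 had 5.99 and 11.97. Each was higher in replicate 2. Of the 5, only the chr6 site at 74311467 carried H3K9me3 before doxycycline, and none held AANATGGC within 50 bp of its summit. A lost site has no deposited value in the doxycycline libraries, so the size of its fall is unknown.

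Sites with at least 5 of the SVA words are called SVA-type sites. They numbered 1452 of 139927 (1.04%), and 131 of them overlapped a listed SVA. Since such words also occur in SVAs outside that list and in related repeats, the family of a copy was not assigned. The words can lie anywhere in a site, so a summit can lie beside them. For example, the kept promoter site of ZNF649, 2766 bp wide with the YY1 motif near its summit, held 6 words and counts as SVA-type. SVA-type sites made up 1.05% of kept, 0.957% of gained and 29.8% of lost sites (101 of 339, 95% Wilson interval 25.2 to 34.9%, counting error only). The share in lost sites was 12.7% with lists of equal length, 9.37% with summits joined at up to 100 bp, and 41.0% among the 200 lost sites at a −log10 q of at least 5. Without single libraries it fell to between 2.72% and 19.7% as the lost sites, then called on 3 libraries, rose in number.

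YY1 peaks at SVA-type sites did not share in the general rise. Sites elsewhere that held a peak numbered 53954 and 71139 without doxycycline and 78607 and 110055 with it, a factor of 1.46 and 1.55 within replicates. SVA-type sites with a peak numbered 842 and 870 without and 868 and 847 with doxycycline, a factor of 1.03 and 0.974. Their share of all sites with a peak was 1.54% and 1.21% without and 1.09% and 0.764% with it, without overlap (exact permutation p = 0.33, the smallest possible). SVA-type sites with a fold enrichment of at least 8 numbered 144 and 255 without and 93 and 195 with doxycycline, a factor of 0.646 and 0.765, where other sites of that height changed by 1.44 and 1.51. These counts overlapped between conditions and were lower with doxycycline within each replicate. Sites on listed SVAs with a peak numbered 91 and 89 without and 62 and 64 with doxycycline.

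Fold enrichment at the kept SVA-type sites moved with the peak counts. At the 389 kept SVA-type sites the median log2 difference was -0.07 in replicate 1 and -0.17 in replicate 2, against 0.30 and 0.35 at the 36550 others. It was below 0 in both replicates at 166 SVA-type sites (42.7%) and at 1937 others (5.30%). At the 33 kept sites on listed SVAs the medians were -0.22 and -0.31, with 22 lower in both replicates. At the 188 kept sites that gained H3K9me3 they were -0.25 and -0.35, with 108 lower in both.

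H3K9me3 was more frequent at lost sites than at YY1 sites as a whole, but not gained more often at lost than at kept SVA-type sites. A peak of H3K9me3 in both doxycycline libraries overlapped 136 lost sites (40.1%), against 8.32% of all YY1 sites, 8.41% of kept and 7.39% of gained sites. In both libraries without doxycycline the mark overlapped 18.9% of lost sites (64) and 10.0% of all sites. Sites where H3K9me3 was gained (peaks in both doxycycline libraries and in neither without) made up 16.2% of lost sites (55), 0.509% of kept (188) and 0.121% of gained (11), against 0.460% of all sites. Of the 101 lost SVA-type sites 100 held H3K9me3 in both doxycycline libraries and 50 already in both libraries without. Of the other 238 lost sites 15.1% held it in both doxycycline libraries. SVA-type sites as a whole held it in both doxycycline libraries in 88.6% and in both libraries without in 54.4%. Kept SVA-type sites held it in both doxycycline libraries in 78.9%, and gained ones in 93.1%. H3K9me3 was gained at 34 of the lost SVA-type sites (33.7%) and at 138 of the kept ones (35.5%). Among the 643 YY1 sites with H3K9me3 gained, 315 were SVA-type sites. At these 315 sites a YY1 peak was present in 236 and 278 without and in 169 and 214 with doxycycline, with median fold enrichments of 6.32 and 8.15 without and 5.28 and 6.04 with it.

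OCT4, a pluripotency factor, was profiled in 1 library per condition, so its values have no replicate error. An OCT4 peak overlapped 16.6% of YY1 sites without and 6.95% with doxycycline. Lost sites held OCT4 in 30.4% without and 5.31% with doxycycline, kept sites in 31.0% and 10.9%, and gained sites in 8.09% and 3.97%. The 389 kept SVA-type sites held OCT4 in 63.2% without and 29.3% with doxycycline, and the 101 lost SVA-type sites in 36 cases without and 0 with it. The fall of OCT4 overlap was thus seen in every class of YY1 site. AANATGGC was present within 50 bp of the summit at 4.13% of SVA-type sites and 26.9% of other sites. Other forms of the YY1 motif with the ATGG core were not counted, so these shares do not show how many sites lack one.

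RNA of the genes next to these sites was compared in the 6 RNA-seq libraries, 3 per condition, with edgeR. In such bulk samples fewer cells of a type and less RNA per cell cannot be told apart. Of 16371 genes tested, 1469 (8.97%) were higher and 1389 (8.48%) lower with doxycycline at an adjusted p of 0.05. The nearest protein-coding gene within 50 kb was taken for each site. Of 246 tested genes near lost sites, 73 (29.7%) were lower and 14 (5.69%) higher. For kept sites 9.85% of 11197 genes were lower and 8.96% higher, and for gained sites 11.1% of 3961 were lower and 8.28% higher. Near lost SVA-type sites 35 of 80 genes (43.8%) were lower and 1 was higher. Near the other lost sites 40 of 171 (23.4%) were lower and 13 higher, and near kept SVA-type sites 116 of 269 (43.1%) were lower and 3 higher. Lost sites called on lists of equal length had 17.8% of genes lower. These are counts over genes, which share sites and are not replicates, and were not tested as sets.

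The following genes were chosen after their values were seen, as the largest falls near lost SVA-type sites among genes with at least 10 TPM without doxycycline. INPP5F, an inositol phosphatase, lay 3536 bp from a lost site on chr10 and had 17.6, 20.5 and 20.2 TPM without and 9.21, 8.56 and 10.2 with doxycycline (log2 fold change -1.04, SE 0.07, edgeR adjusted p = 1.7e-05). ARFGEF1, an exchange factor for ARF GTPases, lay 7055 bp from a lost site and had 39.5, 47.1 and 39.9 TPM without and 19.9, 19.03 and 22.9 with it (-1.01, adjusted p = 6.3e-05). ASH2L, a subunit of histone H3K4 methyltransferase complexes, lay 1874 bp from a lost site and had 128, 136 and 124 TPM without and 61.7, 59.4 and 61.3 with it (-0.99, adjusted p = 7.9e-06). The lost sites at ARFGEF1 and ASH2L gained H3K9me3 and held OCT4 without doxycycline. F2RL1, a receptor activated by proteases, had 16.5 ± 0.84 TPM without and 9.47 ± 0.65 with doxycycline (SD, n = 3, -0.82, edgeR adjusted p = 1.7e-04), and A4GALT, a glycosphingolipid synthase, 34.8 ± 1.3 and 20.7 ± 0.95 (SD, n = 3, -0.76, edgeR adjusted p = 2.3e-04). For all 5 the groups did not overlap. Among lost sites without SVA words that gained H3K9me3, also chosen after their values were seen, a site lay 9565 bp from PRODH, a mitochondrial proline dehydrogenase, with 152, 152 and 113 TPM without and 36.4, 28.5 and 34.1 with doxycycline (-1.98, edgeR adjusted p = 4.4e-06). Another lay 40980 bp from ST6GAL1, a sialyltransferase, with 74.4, 82.1 and 69.4 TPM without and 25.9, 25.9 and 27.9 with it (-1.42, edgeR adjusted p = 8.5e-07).

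Few promoters of protein-coding genes gained or lost YY1 in both replicates. Of 20098 genes, 10124 (50.4%) had a peak of every library within 1000 bp of a start site, 421 (2.09%) had gained, 18 (0.0896%) had lost their peaks and 5933 had none in any library. The remaining 3602 (17.9%) had peaks of some libraries in other combinations. Among all YY1 sites 6.5% were gained and 0.242% lost, shares that include no places without a peak. Genes with a kept promoter were lower in 9.20% and higher in 9.27% of 9680 tested, close to the shares over all genes. Of 358 tested genes with a gained promoter 23 were lower and 34 higher, and of 16 with a lost promoter 1 was lower and 2 higher. The strongest lost promoter was that of VCL, an actin-anchoring protein of cell adhesions, with fold enrichments of 8.98 and 7.003 without doxycycline.

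Housekeeping gene groups held YY1 at most of their promoters. Promoters were kept for 79 of 85 genes of cytosolic ribosomal proteins, 70 of 78 of mitochondrial ribosomal proteins, 72 of 88 of the respiratory chain, 41 of 48 of the proteasome and 33 of 37 aminoacyl-tRNA synthetases. Over all 20098 protein-coding genes 50.4% of promoters were kept, 2.09% gained and 0.0896% lost. At such shares few or none are expected in groups of this size, and none of these 5 groups had a gained or lost promoter. The same held for the INO80 complex, a chromatin remodeller that contains YY1, with 14 of 16 kept, Polycomb complexes with 25 of 31, and cohesin with CTCF with 12 of 13. Of 476 ZNF genes, which encode zinc finger proteins, 308 were kept, 9 gained and 0 lost. Of 39 HOX genes 17 were kept and 2 gained. Genes of a group can share a promoter, as SURF1 and SURF2 do.

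At kept promoters of all protein-coding genes the median log2 difference of fold enrichment was 0.20 in replicate 1 and 0.32 in replicate 2. Mitochondrial ribosomal protein genes had 0.20 and 0.25, with a median fold enrichment of 29.8 in replicate 1 without doxycycline. Cohesin and CTCF genes had 0.14 and 0.33, ZNF genes 0.19 and 0.31, and aminoacyl-tRNA synthetases 0.03 and 0.23. For RNA, in the respiratory chain 29 of 82 tested genes were higher and 0 lower, among mitochondrial ribosomal proteins 14 of 78 were higher and 1 lower, and among aminoacyl-tRNA synthetases 12 of 37 were lower and 1 higher. Among ZNF genes 62 of 456 were lower and 8 higher. Over all 15185 protein-coding genes tested, 9.31% were higher and 8.69% lower. Differences between the groups were not tested.

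Among 24 named genes, 17 promoters were kept, 5 held peaks of some libraries and 2 had none. The promoter of YY1 itself, on chromosome 14, had a fold enrichment of 122 and 109 without and 122.5 and 111 with doxycycline, so the groups overlapped. YY1 RNA was 44.5, 46.1 and 48.1 TPM without and 41.8, 40.4 and 43.7 with doxycycline (log2 fold change -0.10, SE 0.05, edgeR adjusted p = 0.20). INO80 had a fold enrichment of 59.2 and 49.3 without and 62.3 and 47.6 with it. CTCF, the insulator protein, had 57.9 and 43.1 without and 67.0 and 56.1 with it, and RAD21, a cohesin subunit, 50.9 and 49.8 without and 57.1 and 60.9 with it. RAD21 was higher in both doxycycline libraries and the others overlapped between conditions.

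SURF1 and SURF2, a divergent pair of genes known for YY1 at their shared promoter, had 41.9 and 27.2 without and 47.97 and 37.8 with doxycycline. COX5B and COX7C, subunits of cytochrome c oxidase, had 15.99 and 12.5 without and 17.1 and 17.96 with it, and 18.9 and 17.3 without and 25.6 and 23.9 with it. RPL30, a ribosomal protein gene, had 25.8 and 18.2 without and 26.1 and 24.4 with it, and the imprinted gene GNAS 18.4 and 11.5 without and 23.2 and 15.2 with it. RUVBL1 and RUVBL2, ATPases of INO80, had 11.6 and 13.3 without and 10.6 and 17.8 with it, and 17.96 and 15.96 without and 26.8 and 21.6 with it. EZH2, the Polycomb methyltransferase, had 5.73 and 4.73 without and 8.17 and 8.26 with it, and its partner EED 9.57 and 10.5 without and 8.28 and 10.0 with it. RNF24 had 4.27 and 5.08 without and 6.16 and 5.398 with it. COX5B, COX7C, RUVBL2, EZH2 and RNF24 were higher in both doxycycline libraries, by the deposited values, while the others overlapped. RNF24 RNA fell by 0.56 on the log2 scale (SE 0.06, edgeR adjusted p = 5.4e-04).

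Of 11 core pluripotency genes, 7 had kept promoters, against 50.4% of all protein-coding genes. Lost or gained promoters numbered 0 among the 11, against 0.0896% and 2.09% of all protein-coding genes. DNMT3B, a DNA methyltransferase of early development, had 33.3 and 28.9 without and 41.7 and 33.7 with doxycycline, and NANOG 6.21 and 5.66 without and 4.02 and 7.79 with it. DNMT3B was higher in both doxycycline libraries, by a small margin, and NANOG overlapped between conditions. LIN28A held a peak in both replicate 1 libraries and SOX2 in both replicate 2 libraries. ZFP42, a paralog of YY1, held peaks in 3 libraries, SNRPN in 3 and PEG3 in 1, and POU5F1 and YY2 in none. RNA of NANOG was 41.7, 54.4 and 44.9 TPM without and 32.5, 31.5 and 29.2 with doxycycline (log2 fold change -0.57, SE 0.05, edgeR adjusted p = 1.4e-04), and that of DNMT3B fell by 0.60 (SE 0.07, edgeR adjusted p = 9.0e-04). All 10 pluripotency markers checked were expressed, with means from 28.02 to 348 TPM, and 6 of them were lower with doxycycline, against 8.48% of all tested genes. Of 8 markers of germ layers and trophoblast 7 lay at or below 3.20 TPM, HAND1 had 124 TPM without and 116 with doxycycline, and GATA6 rose from 0.432 to 1.05 TPM (log2 fold change 1.46, edgeR adjusted p = 1.9e-03). The part of these RNA differences in the YY1 lists was not tested.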

How the data were processed

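YY1 ChIP-seq of SCi-NCCITs (4 libraries) was analysed from the deposited peak lists. According to the methods of the study, the authors trimmed adapters, aligned reads to hg19 with BWA MEM, discarded reads of mapping quality 10 or less and duplicates, and made a peak list per sample at a 5% FDR. The peak caller is not given in the sources used here. The deposited lists give fold enrichment as a ratio and p- and q-values as −log10. The authors deposited kallisto estimated counts and TPM per transcript for RNA-seq (15305909 to 49878613 estimated counts per library, the lowest in no doxycycline replicate 1), which were summed per gene of GENCODE v44lift37 and rounded. Of 188753 transcripts 166506 matched the annotation. The HiChIP contact table has 12 columns of sample values that match no label and was left out.

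Peaks on chromosomes 1 to 22 and X that share at least 1 bp were joined into sites. A further 278 to 379 peaks per library, on other sequences, were left out. The highest peak of a library in a site was used. Kept sites were compared with limma 3.58.1 on log2 fold enrichment, without pseudocount, centred per library, RNA with edgeR 4.0.16 (filterByExpr, TMM, glmQLFTest), both with Benjamini-Hochberg adjustment and a threshold of 0.05. Library values were compared with two-sided exact permutation tests. Background pileup was 1 divided by the spacing of the fold enrichments of weak peaks, minus 1. This takes fold enrichment as the number of fragments plus 1 over the local background plus 1, which was inferred from the values. The SVAs were the intervals that the study lists as de-repressed. The named sites were the 5 lost, gained and kept sites with the highest mean fold enrichment and the 3 kept sites per direction with the smallest limma p. The named promoters were a list of YY1 targets and partners, and factors of pluripotency. These lists, and the choice of the members, were made with earlier results of these data known. Joining was checked against bedtools 2.31.1 and both fits were tested on simulated data. Alternatives were a stricter q-value, equal lists, other joining, other scaling, a replicate block, DESeq2 1.42.0 and leaving out each library. Python 3.11.15, R 4.3.3 and hg19 (GRCh37) were used. The sequences of single SVA words and of 1 gained site are not reported here.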

Additional observations from a re-analysis of the deposited data

How the results depend on the processing

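The doxycycline libraries held more peaks under each alternative run, with a difference of the means of 15682 to 49368 peaks when single libraries were left out. The difference of the median fold enrichments was between -0.21 and -0.16 without single libraries and turned to 1.45 with the same number of peaks per library. The difference of the promoter share stayed below 0 in all alternatives, from -8.25 to -0.96 percentage points without single libraries. Kept sites stayed within 1.5 times of the reported number. Gained sites fell to 2157 with equal lists and numbered 14655 to 41960 without single libraries, since 3 libraries then define them. Lost sites numbered 200 at a −log10 q of at least 5, 1277 with equal lists, 843 with summits joined at up to 100 bp, and 822 to 7770 without single libraries. For kept sites, leaving out single libraries gave 1 to 3 higher and 0 to 19 lower sites, and 0 in either direction followed from uncentred or quantile-normalized values, a pseudocount of 1 and the stricter q-value. Without centring, the sites at an unadjusted p under 0.05 were 2062 higher and 99 lower. With the library series as a replicate block there were 70 higher and 467 lower kept sites, and of the lower ones 90 (19.3%) were SVA-type and 68.1% lay at promoters, with a median fold enrichment of 65.2 against 7.92 over all kept sites. The labels do not say that libraries of a series were paired, although their deviations from the condition means correlated (r = 0.56). Genes near lost sites were lower in 17.8% with equal lists, 17.4% with summits joined, and 12.01% to 21.6% without single libraries, and in 25.0% and 29.1% within 10 and 200 kb, choices made after seeing the data. The RNA-seq count was 3316 genes with the replicate number as a block (2858 without, correlations of deviations -0.0009 to 0.13), 2948 with DESeq2, and 1396 to 3259 without single libraries. Leaving out doxycycline replicate 2 gave 1396 genes and leaving out no doxycycline replicate 2 gave 1469. By the estimate from the spacing, 13.6 to 17 fragments lay at a summit of median fold enrichment.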
